A study of Mus musculus with 19 samples.

Results

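In late wild-type T helper 2 (Th2) cells, 11365 of the 28612 deposited GATA3 ChIP-seq peaks (39.7%) lay away from the listed transcription starts, outside the gene listed beside them, and clear of any called Bcl11b peak. These intergenic GATA3 peaks without Bcl11b were chosen from the peak lists themselves: each overlapped no peak of the input control and none of the Bcl11b list by even 1 bp, had its middle more than 1000 bp from the nearest listed transcription start, and overlapped no listed gene. Of the 28612 peaks, 1413 overlapped an input peak, and 7332 of the other 27199 overlapped a Bcl11b peak. The remaining 19867 divided into 1224 promoter peaks, 7278 distal peaks inside the listed gene and the 11365 members. The position, the peak calls and the absence of a called Bcl11b peak are therefore what the rule used, and the values that follow from them are a description. A missing peak call in 1 library does not show that Bcl11b was not bound.

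The ChIP-seq part of the study held 1 library each for GATA3 (an antibody from BD Biosciences), Bcl11b (an antibody from Bethyl) and input, all from late wild-type Th2 cells, so no peak has a replicate check. The RNA-seq part held a Gata3 and a Bcl11b experiment, each with early and late Th2 cells, wild type (WT) or knockout (KO), and 2 libraries per group, 16 in all. In the Bcl11b experiment, cells of Bcl11b fl/fl-CreERT2 genotype, in which 4-OHT switches on the Cre recombinase, were grown under Th2 conditions for 4 days with 4-OHT or without it (early), or were first taken through 4 days of Th2 culture and 1 day of rest in IL-2 and then given 4 more Th2 days with or without 4-OHT (late). WT and KO cells of that experiment thus carried the same alleles and differed in 4-OHT. For the Gata3 experiment the labels give only the stage and the genotype, WT or Gata3 KO. No source used here gives its Cre, its culture or, for either experiment, the age of the animals. Nothing in the labels says whether the 2 libraries of a group came from separate animals or cultures, so the p-values measure the spread between these libraries, which may be technical.

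GATA3 is a zinc finger transcription factor that binds the sequence WGATAA, in which W is A or T. It is needed for CD4 T cell development in the thymus and directs naive CD4 cells towards the Th2 fate, in which interleukin (IL)-4, IL-5 and IL-13 are made and the Th1 programme of interferon gamma is held back. Bcl11b is a zinc finger factor that commits progenitors to the T lineage and stays on in mature T cells. Much of the binding of such factors falls in enhancers far from promoters, and the nearest gene is a convention for naming a site, not a proven target.

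Sequences were read for members that hold a RefSeq transcription start, from the windows around starts in RefSeq (GRCm38.p6, the assembly called mm10). A whole 300-base window lay inside a member 36 times, and 33 of these were starts of long non-coding RNAs. The motif AGATAA or TGATAA, on either strand, was present in 22 of the 36 (61.1%), against 6115 of all 32851 start windows (18.6%) and 24.2% of the 10472 windows whose GC content lay within the interquartile range of the member windows. The share was 6 of 9 windows (66.7%) in distal peaks inside genes without Bcl11b, 42.4% of 158 in promoter peaks without Bcl11b, 45.7% of 46 in distal peaks with Bcl11b and 29.5% of 295 in promoter peaks with Bcl11b. The shorter GATA alone was present in 86.1% of the member windows, 57.9% of all windows and 71.9% of the windows in that GC range. In distal peaks with Bcl11b it was present in 87.0%, much as in the members. These windows are not a sample of the members, because they are the ones with a RefSeq start inside.

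The summit, the base of highest read pile-up, lay inside the window in 32 of the 36, and 19 of those windows held the motif. In 13 of the 19 the motif was within 50 bp of the summit, and the median distance was 23.5 bp. The stretches below show up to 60 bases on each side of the summit, on the strand of the named non-coding RNA, with the motif or its reverse complement in capitals. LOC115489947 is on the minus strand and the others are on the plus strand. They are the window in the strongest member and the next 3 by score with a motif within 20 bp of the summit, and they were chosen after the motif was seen.
C730014E05Rik, chr16:23175030-23175143: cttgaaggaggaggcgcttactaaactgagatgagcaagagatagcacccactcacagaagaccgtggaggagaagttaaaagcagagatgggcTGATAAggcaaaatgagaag
LOC115489947, chr4:136028835-136028934: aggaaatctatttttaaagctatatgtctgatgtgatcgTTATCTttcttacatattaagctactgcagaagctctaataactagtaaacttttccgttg
Gm36223, chr5:111509112-111509232: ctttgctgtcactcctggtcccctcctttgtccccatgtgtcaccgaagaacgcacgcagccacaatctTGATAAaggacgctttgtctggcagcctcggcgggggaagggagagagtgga
Gm40226, chr4:109550727-109550847: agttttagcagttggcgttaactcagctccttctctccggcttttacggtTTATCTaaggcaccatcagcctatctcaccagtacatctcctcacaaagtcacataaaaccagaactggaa
The C730014E05Rik start sits in a member at chr16:23174561-23175666 with 136 reads, a fold enrichment of 17.63 and the score 3100, and its motif is 43.5 bp from the summit. The gene listed beside it is Adipoq, which encodes the fat hormone adiponectin, 28.6 kb away. The motif was 18.5 bp from the summit in the LOC115489947 member (fold 3.97, nearest listed gene Tceb3), 11.5 bp in the Gm36223 member (fold 7.78) and 7.5 bp in the Gm40226 member (fold 6.63). A match is a description of the letters, not proof of a bound site.

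The members were short, shallow peaks. Their median length was 451 bp, the median peak held 12 reads, with a range from 8 to 189, and 5766 of them (50.7%) held 8 to 12 reads. Fold enrichment as given by the authors' peak caller had a median of 3.13 (interquartile range 2.19 to 4.51). It was under 2 in 2115 members (18.6%) and at least 10 in 371 (3.26%).

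Members and the distal peaks inside genes without Bcl11b were alike in these measures. The latter had a median fold of 3.01 and a median of 12 reads, and 3.05% reached a fold of 10. The 6030 distal GATA3 peaks with Bcl11b were longer (median 639.5 bp) and deeper (median 25 reads), and 783 of them (13%) reached a fold of 10. Their median fold, 3.62, was closer to that of the members than their read number was. Since the classes are defined by overlap with Bcl11b peaks, and longer peaks have more bases that can overlap, these values are a description. Promoter peaks without Bcl11b had a median fold of 2.1.

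**Figure D1:**
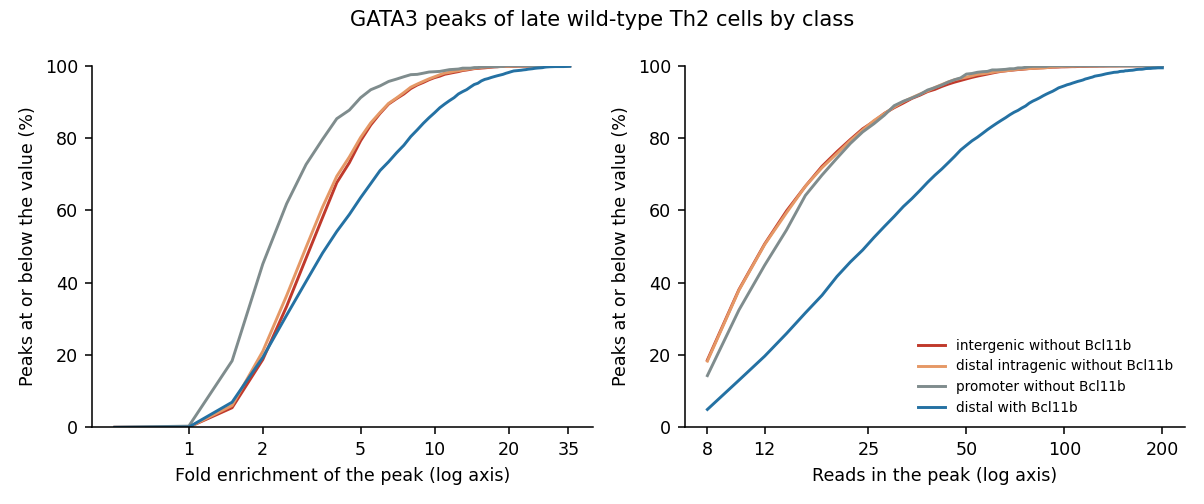
Cumulative share of GATA3 peaks (vertical axis, %) at or below a given fold enrichment (left, log axis) or number of reads (right, log axis) for 4 classes of peak in 1 library. The curves of intergenic and distal intragenic peaks without Bcl11b nearly coincide, with a median of 12 reads, and the curve of distal peaks with Bcl11b lies to the right, with a median of 25.

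Most members lay over 10 kb from a start. The median distance was 26.8 kb, against 16.9 kb for distal peaks inside genes and 21.8 kb for distal peaks with Bcl11b. Between 1 and 5 kb there were 1493 members (13.1%), between 10 and 50 kb there were 4938 (43.4%), and 1835 (16.1%) lay beyond 100 kb. Median fold rose with distance, from 2.65 at 1 to 5 kb to 3.76 beyond 100 kb. The same values in distal peaks with Bcl11b were 3.09 and 4.71. Of the members, 7615 (67.0%) were upstream of the nearest start. The share fell from 89.6% at 1 to 5 kb to 47.6% beyond 100 kb, as the rule removes peaks downstream of a start while they are still inside that gene.

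**Figure D2:**
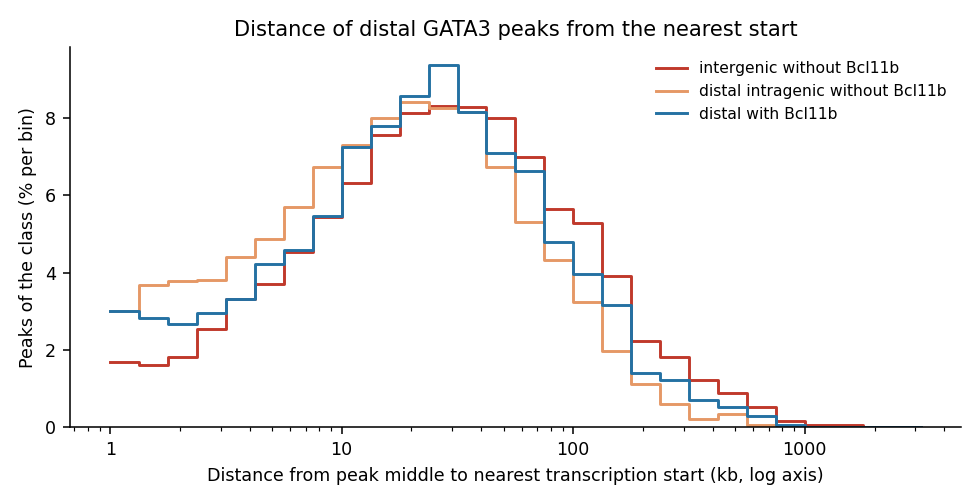
Share of each class of distal GATA3 peak (vertical axis, % per bin) by distance from the middle of the peak to the nearest listed transcription start (kb, log axis). The curve of the intergenic peaks without Bcl11b, median 26.8 kb, is shifted to larger distances than those of the other 2 classes, medians 16.9 and 21.8 kb.

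The word intergenic holds only relative to the closest gene in the deposited list. The distance limit likewise counts only listed starts, and some members hold a RefSeq start, as the 36 windows above show. Against all RefSeq genes of GRCm38.p6, 4966 members (43.7%) overlapped some gene, among them 3501 (30.8%) in a protein-coding gene, and 6399 (56.3%) lay outside every gene. The median fold was 3.09 in members inside a protein-coding gene and 3.22 in those outside every gene. The strongest member by score near Eif2s2, for example, lies inside Raly, and that near Rabgap1l lies inside Rabgap1l itself.

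The nearest other member was a median of 15.2 kb away, and 4782 members (42.1%) stood in runs in which neighbours were at most 10 kb apart. There were 73 runs of 5 or more, with 412 members. The longest, 9 members over 34.2 kb at chr13:63309488-63343724, is beside the microRNA gene Mir3074-1. Runs of 8 lay beside Wnt5b and beside Zfp217, and a run of 7 over 18 kb at chr2:11619672-11637709 is listed beside Il2ra, the alpha chain of the IL-2 receptor, and Rbm17. The nearest Bcl11b peak was a median of 16.7 kb away. It was within 1 kb for 980 members (8.62%) and over 100 kb away for 1492. At the edge of the rule, a member near Mmp13 ended 2 bp from a Bcl11b peak, whereas a GATA3 peak near Abr overlapped a Bcl11b peak by 1 bp and was left out. Members just inside the distance limit, near Tgfbr3l and Sec24a, lay 1003 and 1005 bp from a start, and a peak near Ccdc138 at 998 bp fell outside it.

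Ranked by score, and by fold where scores were tied, the top 10 members were led by one 10.9 kb upstream of Ear6, an eosinophil ribonuclease gene, at chr14:51842217-51843540, with 127 reads and a fold of 25.17. Ear6 itself was listed at 0 in all 8 libraries of the Gata3 experiment. The next was 3.71 kb upstream of Gpr15, which encodes a receptor that guides T cells to the gut, at chr16:58722064-58722802, with 89 reads and a fold of 34.89. The others were nearest to Rabgap1l (fold 34.16), Ipmk (33.53), Ppp1r12a (27.07), Map2k4 (25.42), Eif2s2 (24.61), Fam107b (24.49), the microRNA gene Mir365-2 (24.19) and Selk (23.67). By RefSeq, the Rabgap1l member lies inside Rabgap1l, and those near Eif2s2 and Fam107b lie inside other protein-coding genes. The Mir365-2 member lies inside a long non-coding RNA gene. In all, 13 members share the score 3100 and 1 exceeds it, so 4 with the same score and a lower fold, the C730014E05Rik member among them, are not in these 10.

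Of the genes beside these 10 members, 8 were tested in the Gata3 experiment, and they went in different directions in early KO. Gpr15 fell from 49.2 and 49.6 CPM (normalised read counts, scaled to library size) in WT to 0.541 and 0 in KO (log2 difference -7.40, SE 0.40, edgeR adjusted p = 9.15e-07). Rabgap1l fell by 1.00 on the log2 scale early (SE 0.16, adjusted p = 0.000849) and rose by 0.95 late (SE 0.15, adjusted p = 0.00277). Map2k4, a kinase of the JNK and p38 pathways, rose by 0.80 early (SE 0.13, adjusted p = 0.00113). Fam107b fell and Ppp1r12a rose, but both calls were lost when 1 of 3 of the 4 early libraries was left out (adjusted p up to 0.244 and 0.115). Ipmk, an inositol phosphate kinase, Eif2s2, a translation initiation factor, and Selk did not pass the test, with log2 differences of 0.49, 0.11 and -0.36 and adjusted p-values of 0.0608, 0.54 and 0.0813.

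The RNA libraries held between 5117526 and 9892746 assigned reads in the Gata3 experiment and between 4687552 and 14577958 in the Bcl11b experiment. Early and late WT libraries of the Gata3 experiment could hardly be told apart. Over 8417 genes with at least 50 reads in every library, the SD of the log2 difference was 0.191 between early and late WT libraries numbered 1 and 0.160 between those numbered 2, less than the 0.280 and 0.255 between the 2 libraries of each stage. Between these WT groups edgeR called 0 of 10601 genes, and 128 had an unadjusted p below 0.05, whereas 2600 (24.5%) differed between early and late KO. In the Bcl11b experiment 4529 of 10873 genes (41.7%) differed between early and late WT and 36.6% between early and late KO. No source used here says how the early and late WT cells of the Gata3 experiment differ in culture. A difference in KO effect between stages there is therefore in practice a difference between the KO groups, and exchanging the 2 WT groups changed the counts of calls little. With the other stage's WT, 686 of the genes nearest to members fell in early KO and 495 rose, in place of 698 and 506.

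Gata3 was the first check of the labels. Its reads in early cells fell from 1178 and 1280 CPM in WT to 425 and 419 in KO, a log2 difference of -1.54 (SE 0.11, adjusted p = 5.8e-06). In late cells they fell from 1382 and 1327 to 1090 and 954 CPM, by 0.41 on the log2 scale (SE 0.11, adjusted p = 0.0361). The late call was lost when either late WT library or late KO replicate 2 was left out, with an adjusted p of up to 0.157, and with the early WT libraries as control (adjusted p = 0.154). The remaining Gata3 reads may come from any part of the transcript, so these values do not measure the protein. T cell marker genes summed to RPKM values from 1220 to 1582 in every library of this experiment, B cell markers stayed under 1 in sum, and mast cell and basophil markers reached 5.21 in early KO, led by Cma1, against at most 0.529 in early WT. Their part in the results was not tested. In bulk RNA, fewer cells of a type and less RNA per cell cannot be told apart.

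The members named 5697 nearest genes, of which 3352 (58.8%) had 1 member and 77 had 10 or more. Of these genes 4932 were in the RNA table, and 2920 passed the filter of an RPKM of at least 1 in 2 of the 8 libraries of the Gata3 experiment. In early Gata3 KO, 698 of the 2920 fell (23.9%) and 506 rose (17.3%), against 16.8% and 14% of all 10601 genes tested. In late KO, 280 fell (9.59%) and 367 rose (12.6%), against 5.59% and 8.44%. Without late KO replicate 2 or late WT replicate 2, 179 and 168 fell, and without late WT replicate 1 or 2, 228 and 221 rose. The KO effect differed between stages in 552, being higher late in 373 (12.8%, against 7.74%) and lower late in 179 (6.13%, against 4.47%). The 552 became 358 and 340 without early KO replicate 1 and 2. Without any 1 of the WT libraries or late KO replicate 1 the count was between 422 and 470, and without late KO replicate 2 it was 581. For these fits without a library the share of all genes called is not given here. They therefore do not show whether the excess over all genes changed.

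The larger shares came from genes that also had other GATA3 peaks. Among the 957 tested genes with members but no other GATA3 peak, 15.9% fell and 13.4% rose in early KO, close to the background of all genes. Among the 1963 with another GATA3 peak, 27.8% fell and 19.3% rose. These 2 sets also differ in expression, with median RPKM values in late WT cells of 0.241 and 3.81 over all their genes. For 2906 tested genes with other GATA3 peaks and no member the shares were 16.8% and 14.9%.

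The number of members beside a gene went along with the share that fell. In early KO, 19% of 1616 tested genes with 1 member fell, 25.4% of 611 with 2, 30.4% of 447 with 3 or 4, 36.2% of 199 with 5 to 9, and 28 of 47 (59.6%) with 10 or more. The share that rose was 16.4% at 1 member and 5 of 47 (10.6%) at 10 or more. Median RPKM in late WT rose along the same order, from 1.27 to 7.34. Among genes with at least 3 other GATA3 peaks, 26.6% of 497 with no member fell, 32.6% of 411 with 1 or 2 and 41.5% of 381 with 3 or more. Where a gene had 3 or more members and 1 or 2 other GATA3 peaks, 24% of 204 fell and 23% rose (median log2 difference 0.06). With 3 or more members and no other GATA3 peak, 23 of 97 (23.7%) fell. Expression, the size of the gene-free stretch and the number of other peaks all move with the number of members, and their part was not tested.

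**Figure D3:**
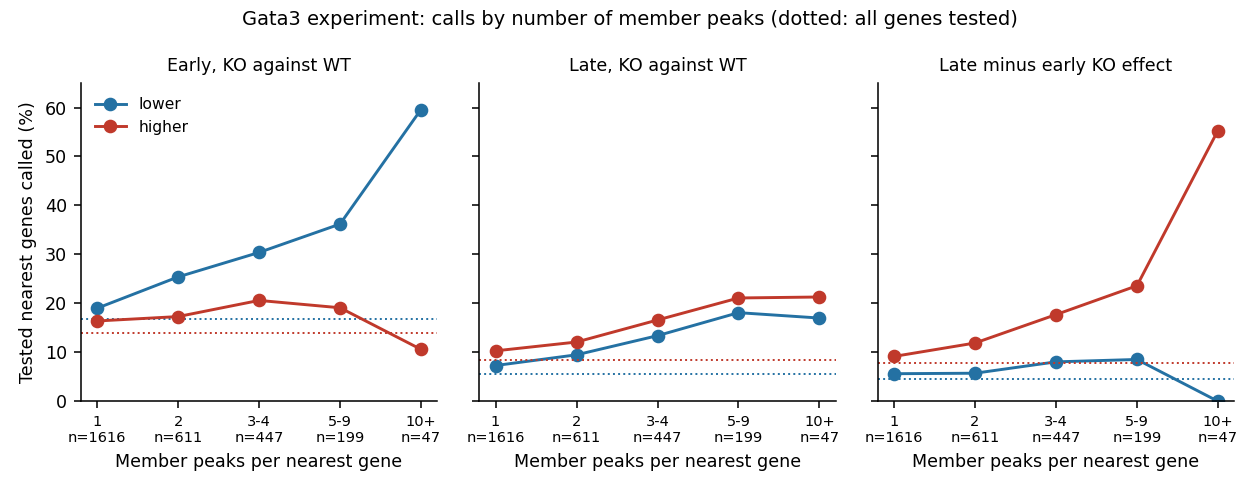
Share of tested nearest genes called higher (red) or lower (blue) in the Gata3 experiment (vertical axis, %) against the number of intergenic GATA3 peaks without Bcl11b beside the gene, with the number of genes under each point, and the share over all 10601 genes as dotted lines. In early KO the share that fell goes from 19% at 1 peak to 59.6% at 10 or more.

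The score of the best member went in the same direction. Where it was at most 100, 19.8% of 514 genes fell in early KO, against 16.8% of all genes tested. Where it was over 1000, 33.7% of 208 fell. By distance, 26.6% of 819 genes with their nearest member at 1 to 5 kb fell, 23.3% of 1235 whose nearest member was at 10 to 50 kb, and 17.4% of 109 beyond 100 kb. That last share is near the share of all genes. A gene with more members is more likely to have a high best score and a near member. These orders are therefore not separate from that of the number of members, and their own part was not tested.

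The 47 tested genes with 10 or more members were nearest to 671 members in all. All 47 also had GATA3 peaks of other classes, from 1 to 26. Their median log2 difference was -0.88 in early KO and 0.20 in late KO, and the KO effect was higher late than early in 26 of the 47 (55.3%, against 7.74% of all genes) and lower in 0 (against 4.47%). Of the 47, 8 fell (17%, against 5.59%) and 10 rose (21.3%, against 8.44%) in late KO.

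Maf, a bZIP transcription factor that drives Il4 in Th2 cells, had the most members, 39, spread from 317.7 kb upstream to 627.7 kb downstream of its start. The member with the highest fold was at chr8:115588900-115589531, 117.7 kb downstream, with 39 reads and a fold of 11.04. Maf read 261 and 206 CPM in early WT and 46.7 and 71.3 in early KO, 242 and 206 in late WT and 267 and 178 in late KO. Early KO lay below both WT libraries, with a log2 difference of -1.99 (SE 0.24, adjusted p = 0.000168), and the late groups overlapped (log2 difference -0.01, SE 0.23, adjusted p = 0.979). The stage difference was 1.97 (SE 0.33, adjusted p = 0.00449).

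Gata3 itself had 21 members, all downstream, from 23.2 to 312.5 kb from its start. The one with the highest fold was at chr2:9772795-9773435, 105.5 kb downstream, with 19 reads and a fold of 9.67. The stretch between Gata3 and the non-coding gene 1700061F12Rik runs, by RefSeq, over chr2:9197485-9857077, 659.6 kb, and held 54 GATA3 peaks, of which 19 overlapped Bcl11b and 35 were members. The authors' list gave 21 of the 35 to Gata3 and 14 to 1700061F12Rik. In all, 1700061F12Rik had 25 members, and its reads went the way of Gata3: 4.34 and 6.39 CPM in early WT against 0 in both early KO libraries (83 reads in WT, so at least 32.4-fold lower with a floor of 3 reads over the KO group). In late cells it read 5.02 and 8.14 CPM in WT and 1.96 and 1.01 in KO (log2 difference -2.24, SE 0.46, adjusted p = 0.0127). That late call was lost without late WT replicate 2 or late KO replicate 2, with an adjusted p of up to 0.0997.

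B3galt2, a galactosyltransferase gene, had 21 members, all upstream and reaching out to 869.4 kb. It read 51.6 and 80.0 CPM in early WT and 1.73 and 2.29 in early KO, a log2 difference of -5.03 (SE 0.36, adjusted p = 4.75e-06). In late cells WT read 54.3 and 76.5 and KO 104 and 71.9 CPM, which overlap. Inhba, which encodes the beta A chain of activin A, had 18 members, 16 of them downstream, to 810.3 kb. Its strongest was at chr13:16763772-16764191, 749.5 kb downstream, with 31 reads and a fold of 16.58. Inhba fell from 92.4 and 87.7 CPM to 1.19 and 1.14 in early KO (log2 difference -6.25, SE 0.18, adjusted p = 1.17e-07). In late cells it read 78.3 and 75.1 CPM in WT and 109.6 and 97.4 in KO, a log2 difference of 0.43 (SE 0.11, adjusted p = 0.0311) that was lost with DESeq2, with the early WT libraries as control, and without either late WT library or late KO replicate 1 (adjusted p up to 0.307). Both genes were thus far lower in early KO and not lower in late KO.

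The receptor genes Il7r, Cxcr4 and Ctla4 had 10 or more members each. Il7r, the IL-7 receptor chain of naive and memory T cells, had 13 members, all within 89.0 kb upstream, and read 327 and 274 CPM in early WT, 90.8 and 64.8 in early KO, 324 and 290 in late WT and 488 and 312 in late KO. Its early log2 difference was -1.95 (SE 0.23, adjusted p = 0.000122). Cxcr4, the receptor of CXCL12, had 13 members, the strongest with 86 reads and a fold of 17.63 at chr1:128790675-128791300, 198.7 kb upstream. Cxcr4 fell from 17.1 and 16.8 to 3.14 and 2.52 CPM in early KO (log2 difference -2.57, SE 0.24, adjusted p = 3e-05) and read 11.6 and 14.8 in late WT against 15.1 and 12.3 in late KO. Ctla4, an inhibitory receptor, had 11 members of modest fold, at most 3.51, and fell from 1536 and 1453 to 344 and 307 CPM in early KO (log2 difference -2.20, SE 0.14, adjusted p = 2.69e-06). Late Ctla4 values overlapped between WT and KO.

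Dusp6, a phosphatase that restrains ERK signalling, went lower at both stages. It had 17 members and read 254 and 267 CPM in early WT, 101 and 117 in early KO, 289 and 279 in late WT and 93.4 and 118 in late KO. The log2 differences were -1.26 (SE 0.13) and -1.42 (SE 0.14), with adjusted p-values of 6.65e-05 and 0.000139. Nrip1, a corepressor of nuclear receptors with 22 members, Pde4b, a cyclic AMP phosphodiesterase with 19, and the AP-1 gene Fosl2 with 11 fell by 0.82, 0.99 and 0.87 on the log2 scale in early KO, with adjusted p-values of 0.0264, 0.0127 and 0.0325. These 3 calls depended on single libraries: Nrip1 lost its call when any of the 4 was left out (adjusted p up to 0.185), Pde4b without early WT replicate 1 or KO replicate 2 (up to 0.119), and Fosl2 with limma and without early WT replicate 1 or either KO library (up to 0.222). Runx1, a lineage regulator with 12 members, did not pass the test (log2 difference -0.25, SE 0.14, adjusted p = 0.22).

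The 5 genes with 10 or more members that rose in early KO, named here after their values were seen, were Themis, Jun, Tet2, Cblb and the unnamed 0610040F04Rik. Cblb, an E3 ligase that dampens T cell receptor signalling, had 11 members, the nearest 153.0 kb from its start, and rose from 39.3 and 32.4 to 180 and 201 CPM in early KO and from 35.3 and 38.8 to 138 and 145 in late KO. Its log2 differences were 2.41 (SE 0.13, adjusted p = 9.5e-07) and 1.93 (SE 0.13, adjusted p = 1.78e-05). Themis, which tunes T cell receptor signals, rose by 0.60 early (SE 0.12, adjusted p = 0.00441) and 1.16 late (SE 0.12, adjusted p = 0.00028). Jun rose by 1.38 early (SE 0.19, adjusted p = 0.000409).

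**Figure D4:**
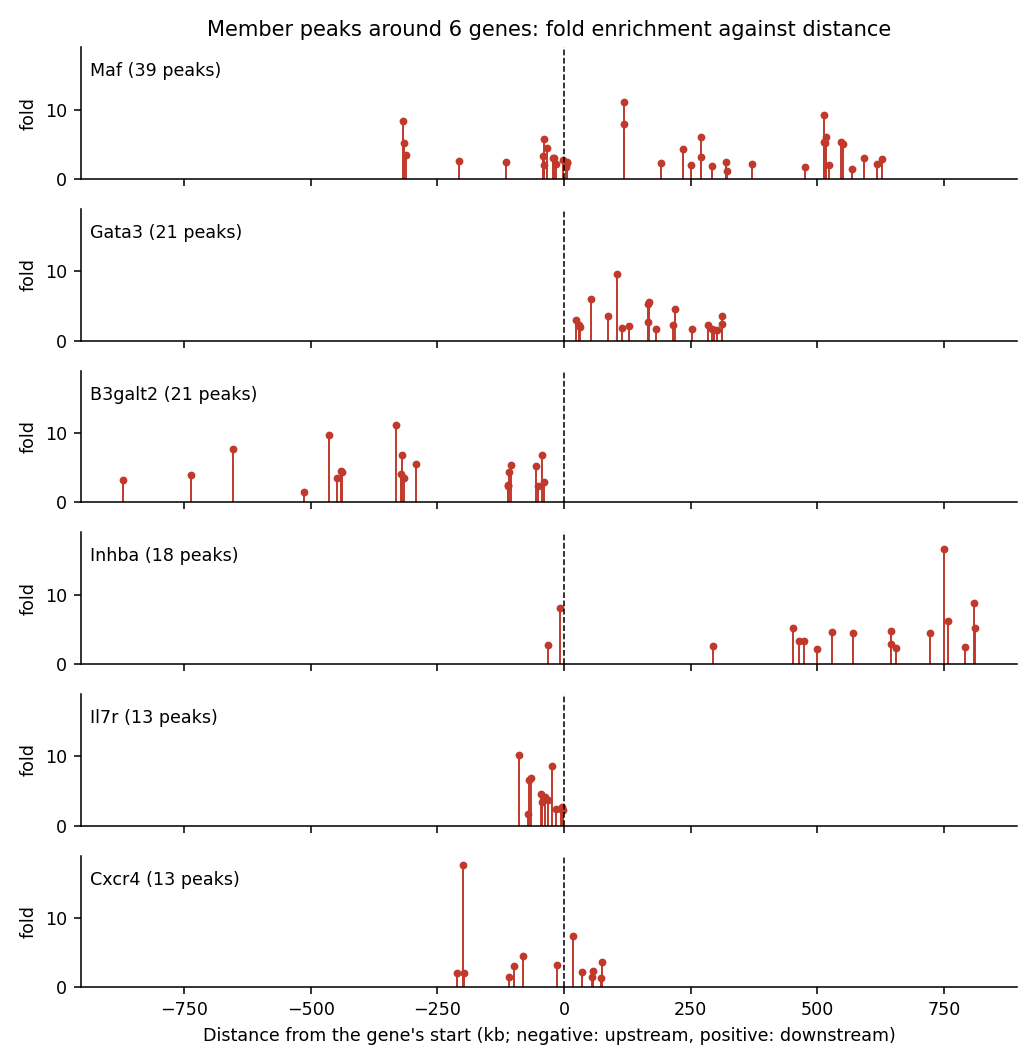
Intergenic GATA3 peaks without Bcl11b around 6 genes. Each stem is a peak, its height the authors' fold enrichment, and its place the distance from the gene's start in kb, negative upstream. The 21 peaks of Gata3 lie downstream, the 21 of B3galt2 upstream, and those of Maf on both sides.

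Of the list of 31 Th2 genes, 21 were nearest to a member, with 115 member peaks. All 21 were tested: 18 fell and 2 rose in early KO (median log2 difference -3.54, against -0.00 over all genes, of which 16.8% fell and 14% rose), and 11 fell and 3 rose in late KO (median -0.86, with 5.59% and 8.44% of all genes). In the whole list, 21 of 27 tested genes fell and 3 rose in early KO (median -2.69). Il1rl1, the IL-33 receptor ST2, had a member with 97 reads and a fold of 17.44 at chr1:40427022-40427913, 2.10 kb upstream of its start. Il1rl1 fell from 887 and 1008 to 6.28 and 3.55 CPM in early KO (log2 difference -7.58, SE 0.40, adjusted p = 8.71e-07) and from 994 and 1080 to 53.4 and 23.7 in late KO (-4.79, SE 0.34, adjusted p = 2.55e-05). Pparg, a nuclear receptor of Th2 cells, had 7 members upstream and fell from 131 and 189 to 3.14 and 1.95 CPM in early KO (log2 difference -5.96, SE 0.32, adjusted p = 8.71e-07). In late KO it read 77.3 and 59.6 CPM against 133 and 184 (-1.22, SE 0.22, adjusted p = 0.00598), a call lost without late KO replicate 2 (adjusted p = 0.0525). The decoy receptor Il1r2 and the eotaxin receptor Ccr3 fell by 5.10 and 4.76 on the log2 scale in early KO. Il13, a Th2 cytokine, had 1 weak member (9 reads, fold 1.88) 12.2 kb upstream and fell by 6.93 early and 5.11 late.

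Among named genes with a member within 100 kb, a mean RPKM of 5 or more in the higher of WT and KO and no overlap between their libraries, the 8 largest falls in early KO were those of Il1rl1, Gpr15, Akr1c18, Sval1, Pth, Areg, Slc17a6 and Cyp11a1. Gene models without a proper name, such as 1700061F12Rik, were not ranked. Akr1c18, a hydroxysteroid dehydrogenase, had 1 member 9.90 kb upstream and fell from 3414 and 3740 CPM to 19.3 and 11.4 in early KO and from 3847 and 3988 to 78.7 and 84.3 in late KO. Cyp11a1, the side-chain cleavage enzyme that starts steroid synthesis, fell from 1366 and 1584 to 11.3 and 5.84 CPM early and from 1576 and 1593 to 125 and 73.4 late. Areg, a ligand of the epidermal growth factor receptor, fell from 129 and 211 to 1.30 and 0.458 CPM early. These genes had 1 to 3 members each. The KO effect on Sval1 differed between the stages (adjusted p = 0.00411): early KO read 0.541 and 0.114 CPM, and late KO read 109 and 26.3 against 79.3 and 43.8 in late WT. Slc17a6, a vesicular glutamate transporter, read 0.650 and 0.458 CPM in early KO, and 38.8 and 27.7 in late KO against 114 and 105 in late WT.

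In late KO the largest falls under the same limits were those of Slc7a8, Akr1c18, Myo6, St3gal6, Il13, Il1rl1, Pth and Rnf128. Slc7a8, an amino acid transporter with 3 members, fell from 51.4 and 62.9 to 1.17 and 0.912 CPM (log2 difference -5.81, SE 0.30, adjusted p = 5.77e-06). Myo6, an unconventional myosin, fell from 1394 and 993 to 34.8 and 20.4 CPM. St3gal6, a sialyltransferase, fell from 83.6 and 79.3 to 3.52 and 1.62 CPM. The ubiquitin ligase gene Rnf128, known as GRAIL, had a member of fold 13.44 and fell from 425 and 289 to 27.6 and 8.51 CPM. All 8 had also fallen in early KO.

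Th1 and cytotoxic genes beside members went the other way. Of 20 Th1 genes, 10 were nearest to a member, with 26 member peaks, and 8 rose and 1 fell in early KO (median log2 difference 1.82), against 14% and 16.8% of all genes. In the whole list, 16 of 20 rose and 2 fell. Of 21 cytotoxic and natural killer (NK) receptor genes, 7 were nearest to a member, 5 rose and 1 fell, and the whole list had 19 that rose and 1 that fell. Ifng, interferon gamma, had 3 members, the strongest with 41 reads and a fold of 12.03 at chr10:118481388-118481863, 40.6 kb downstream. Ifng rose from 6.10 and 2.63 to 931 and 991 CPM in early KO (log2 difference 7.79, SE 0.92, adjusted p = 0.00013). In late cells WT read 3.14 and 4.07 CPM and KO 7.05 and 84.5, with 1 KO library far above the other. The late call (3.74, SE 0.87, adjusted p = 0.0191) was lost with limma and without either late WT library or late KO replicate 2 (adjusted p up to 0.182). Fasl, a death ligand of killer cells, had 6 members, the strongest of fold 11.9, and rose from 3.80 and 2.76 to 308 and 330 CPM early and from 5.97 and 3.43 to 16.6 and 21.3 late.

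Other large early rises included Klrb1c, which encodes the NK cell receptor NK1.1, and Mgl2, a C-type lectin of macrophages and dendritic cells. Klrb1c had 1 read in the WT libraries together and 780 in KO, a ratio of 667 (95% exact counting interval 119 to 26360). Mgl2 had 1 and 671 reads, a ratio of 573 (103 to 22681). The 1 member of Mgl2 held 8 ChIP reads, and that of Klrb1c held 17. Serpinb9, an inhibitor of granzyme B, rose from 4.34 and 2.51 to 282 and 221 CPM, and Ms4a6d, Cables1 and Mndal each rose to between 42.4 and 118 CPM in both early KO libraries. Mgl2 and Cma1 are markers of other cell types. The macrophage and dendritic cell markers summed to RPKM values from 5.17 to 5.57 in early KO and from 4.42 to 4.71 in early WT, mostly Cd68, with Csf1r, Lyz2 and Fcgr1 at 0 in early KO, and reached 10.7 in late KO. CD8 markers summed to 10.5 to 12.8 in early KO against 3.29 to 4.25 in early WT. The part of these markers in the rises was not tested.

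Under those limits on RPKM, distance and overlap, the 8 largest late rises were those of Mmp13, Batf3, Il12rb2, Lrrc32, Ifng, Tmem176b, Tmem176a and Gpr18. Batf3, a bZIP factor, had 2 members and rose from 5.23 and 3.86 to 184 and 178 CPM in late KO and from 7.05 and 5.14 to 123 and 68.7 in early KO. Il12rb2, the signalling chain of the IL-12 receptor, had 5 members upstream and rose from 12.5 and 9.86 to 170 and 293 CPM late and from 9.62 and 6.89 to 290 and 290 early. Lrrc32, which presents latent TGF-beta at the cell surface, rose from 18 and 13.6 to 243 and 202 CPM late. Mmp13, a collagenase, had 2 reads in late WT and 442 in late KO, a ratio of 279 (95% exact counting interval 76.7 to 2309). Both members of Mmp13 held 8 reads, the lowest number of any member. The 1 member of Tmem176a also held 8 (fold 1.16), and that of Tmem176b held 25 (fold 9.64). Stat4, which signals from the IL-12 receptor, had 2 members and rose by 3.70 early (SE 0.28, adjusted p = 6.7e-06) and 1.93 late (SE 0.26, adjusted p = 0.00115). Batf3, Il12rb2, Lrrc32 and Stat4 were thus called higher at both stages.

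**Figure D5:**
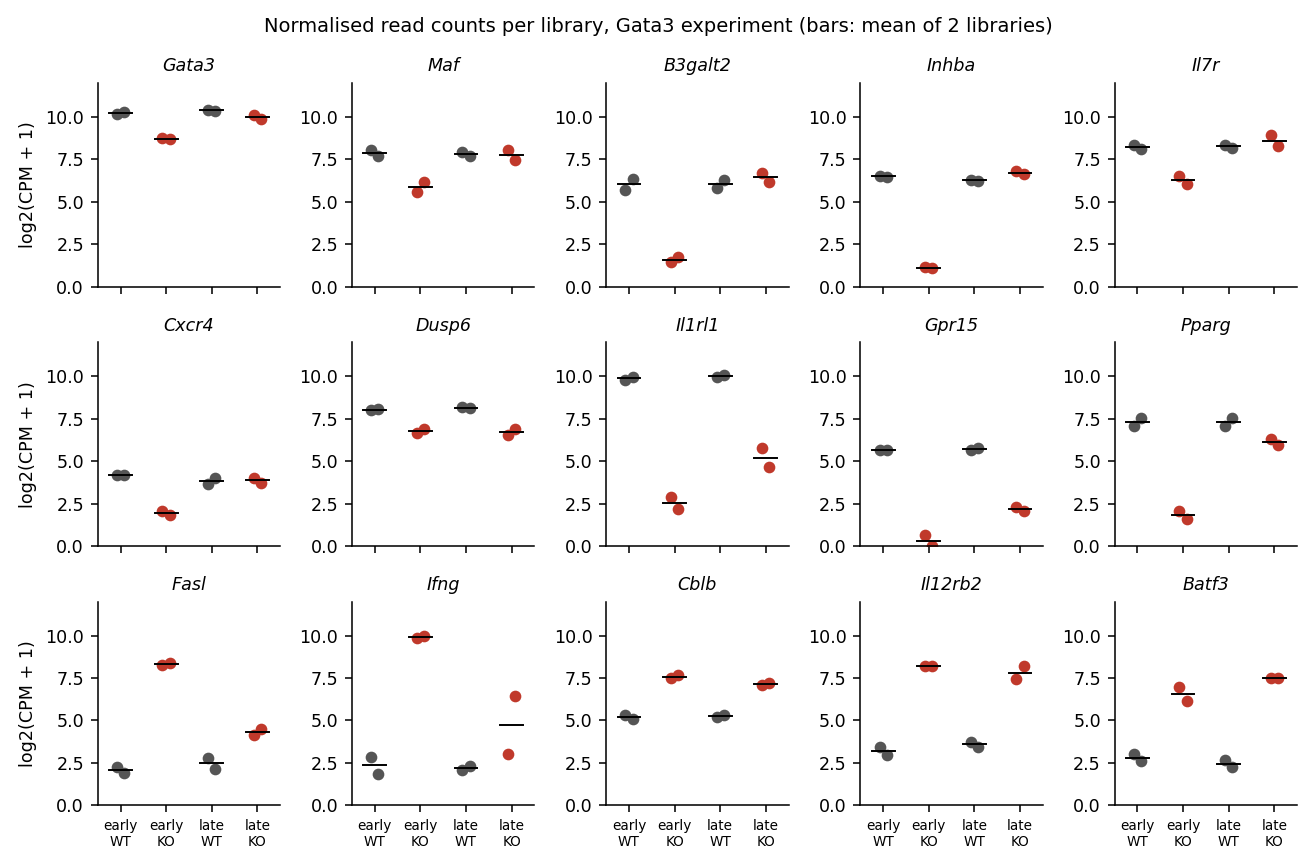
Normalised read counts, as log2(CPM + 1), of 15 genes nearest to intergenic GATA3 peaks without Bcl11b, in each library of the Gata3 experiment (points, WT grey and KO red) with the mean of 2 libraries (bars). Maf, B3galt2, Inhba, Il7r and Cxcr4 are low in early KO and overlap or exceed WT in late KO, Il1rl1 and Dusp6 are low at both stages, and Cblb, Il12rb2 and Batf3 are high at both.

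The other lists are set against 16.8% of all genes that fell and 14% that rose in early KO. Of 22 naive and memory T cell genes, 21 were nearest to a member, with 125 member peaks, the most of any list; of the 19 tested, 11 fell and 4 rose in early KO (whole list, 11 and 5 of 20). Of 29 chemokine receptor and integrin genes, 24 were nearest to a member, and of 17 tested 10 fell and 6 rose (whole list, 11 and 8 of 21). Itga4, the alpha 4 integrin, had 6 members and fell by 2.63 early (SE 0.16, adjusted p = 2.02e-06) and read 129 and 138 CPM in late WT against 137 and 144 in late KO. Of the Th17 list, 7 of 9 genes beside members were tested and 6 fell and 0 rose in early KO (whole list, 7 and 0 of 8), among them Ahr (log2 difference -3.23, SE 0.20, adjusted p = 1.77e-06) and Batf (-2.33, SE 0.19, adjusted p = 1.31e-05). Of the regulatory T cell and inhibitory receptor list, 10 genes beside members were tested, and 7 fell and 2 rose (whole list, 11 and 2 of 14). The falls there included Il2ra (log2 difference -2.20, SE 0.11) and Icos (-2.04, SE 0.15), a costimulatory receptor. Of 15 tested T cell receptor and identity genes beside members, 4 fell and 2 rose (whole list, 6 and 5 of 24). Of 14 cytokine receptor and STAT genes 3 fell and 4 rose (6 and 5 of 22). Of 15 activation and AP-1 genes 7 fell and 5 rose (9 and 7 of 22), and of 5 GATA family and partner genes 1 fell and 1 rose (1 and 4 of 9). The 3 tested genes of the CD4 and CD8 lineage list beside members rose in early KO (whole list, 4 of 6), among them Runx3 (log2 difference 1.13, SE 0.17, adjusted p = 0.000618), which drives the CD8 fate. The call of another, the coreceptor gene Cd4 (0.34, SE 0.10, adjusted p = 0.0292), was lost when any of the 4 early libraries was left out (adjusted p up to 0.147).

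Loss of Bcl11b, which had no called peak at the members, was compared beside the same genes. Of 3024 tested nearest genes, 433 rose (14.3%) and 343 fell (11.3%) in early Bcl11b KO, against 11% and 10.1% of all 10873 genes. On the log2(RPKM + 1) scale, without TMM scaling, limma gave 1872 that rose and 86 that fell, with the median of all genes at 0.86, so the early split differs between these scales. In late Bcl11b KO, 71 rose (2.35%) and 19 fell (0.628%), against 1.69% and 0.524%. With the 4 late libraries fitted alone, 385 rose and 194 fell, against 8.72% and 5.83% of all genes. The KO effect differed between stages in 75 genes that were higher late (2.48%, against 1.95% of all genes) and 64 that were lower late (2.12%, against 1.29%). Leaving out any single late library brought the late counts to between 8 and 14 that rose and to 2 that fell. For these fits and for limma the share of all genes called is not given here. Their counts therefore do not show whether the genes beside members differed from all genes.

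Bcl11b reads in early cells fell from 126 and 128 CPM to 66.5 and 54.2 (log2 difference -1.08, SE 0.28, adjusted p = 0.0232), a call lost without early WT replicate 1 or KO replicate 2 (adjusted p up to 0.082), and it was not lower with limma on log2(RPKM + 1) (log2 difference 0.0469). In late cells they read 140 and 181 CPM in WT and 75.6 and 137 in KO and did not pass the test (-0.59, SE 0.28, adjusted p = 0.421). Inhba rose in early Bcl11b KO from 13.8 and 14.7 to 130 and 133 CPM (log2 difference 3.20, SE 0.19, adjusted p = 1.9e-05), the opposite of its direction in early Gata3 KO, and in late KO it rose from 158 and 174 to 463 and 405 CPM (1.39, SE 0.17, adjusted p = 0.00355). The late Inhba call was lost without late WT replicate 1 or late KO replicate 1 (adjusted p up to 0.0799). Penk, proenkephalin, had 1 member 13.2 kb away and rose from 59.7 and 47.4 to 650 and 785 CPM early and from 737 and 890 to 5319 and 4234 late, while it fell in early Gata3 KO from 1460 and 1818 to 14.6 and 8.58 CPM. Il13 rose in early Bcl11b KO from 7.54 and 5.87 to 182 and 119 CPM. Gpr15 fell, as it did in early Gata3 KO, from 26 reads over the early WT libraries together to 0 in early Bcl11b KO. Myo6 fell in both experiments, in early Bcl11b KO from 935 and 893 to 187 and 194 CPM. In RPKM, without TMM scaling, early T cell markers of this experiment summed to 343 to 467 in WT and 1090 to 1105 in KO. Th2 markers summed to 39.8 to 47.8 and 175 to 186, B cell markers to 9.79 to 15.6 and 25.1 to 34.6. Mast cell and basophil markers summed to 1.35 to 2.69 and 12.36 to 12.42, the latter led by Cpa3. Erythroid and neutrophil markers summed to 2.12 to 2.96 and 7.14 to 8.46, the latter led by Hba-a1, and CD8 markers to 3.29 to 3.38 and 16.2 to 17.6. On the log2(RPKM + 1) scale the median of all genes was itself 0.86 higher in early KO, so these sums do not give marker content alone. In the TMM-scaled fit of early cells, 0 of 4 tested B cell markers rose and 1 fell. The 1 tested mast cell and basophil marker rose, and of 24 T cell receptor and identity genes 7 rose and 2 fell. The part of these markers in the early changes was not tested.

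The complement receptor gene C5ar1, with 1 member 2.17 kb upstream of its start, had 0 reads in late WT of the Bcl11b experiment and 3303 in late KO, at least 1320-fold higher with a floor of 3 reads over the WT group. C5ar1 is also a gene of myeloid cells. Macrophage and dendritic cell markers summed to RPKM values from 13.3 to 13.6 in late Bcl11b KO and from 4.90 to 6.88 in late WT, led by Cd68, with Fcgr1 at 0 in both groups, and 1 of 4 tested markers rose. B cell markers summed to 6.51 to 8.74 in late KO and 1.65 to 1.83 in late WT, led by Cd79b, and 2 of 4 tested rose. Erythroid and neutrophil markers reached at most 1.64 and mast cell and basophil markers 1.96 in late KO, and none of them was called. The part of these markers in the result was not tested. Itm2c rose from 45.7 and 74.1 to 346 and 369 CPM in late Bcl11b KO and from 56.8 and 54.7 to 232 and 260 in early KO. Maf and Il7r, with 39 and 13 members, did not pass the test at either stage of the Bcl11b experiment. Whether the effects of the 2 knockouts on these genes differ was not tested, since the experiments were fitted separately.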

How the data were processed

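RNA and ChIP libraries came from mouse Th2 cells. Read counts and RPKM values per transcript were deposited by the authors, and so were GATA3, Bcl11b and input peak lists with a score (-10 log10 of the peak's p), fold enrichment and FDR in percent per the file headers. Per the submitters' processing notes, tools were CASAVA 2.18, TopHat2 2.0.13, Bowtie, Novoalign and MACS 1.4.2, with the mm10 build. The peak distance, nearest gene and gene interval are the authors' own.

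From the deposited counts, 1 transcript per symbol (the one with most reads) was kept, and genes that reached an RPKM of 1 in 2 of the 8 libraries of an experiment were fitted with edgeR 4.0.16 (quasi-likelihood test, TMM scaling, 4 groups of 2 libraries, Benjamini-Hochberg adjustment over all genes tested, threshold 0.05). CPM values use TMM scaling. Each SE is the absolute log2 difference divided by the square root of the F statistic of the edgeR test. For genes with few reads in a group it is approximate and may understate the counting error. DESeq2 1.42.0, limma 3.58.1 on log2(RPKM + 1) and log2(RPKM + 0.1), no filter, a replicate block and fits without each library were alternatives. On simulated early Gata3 counts for 10601 genes, 94% of 2-fold and 100% of 4-fold changes were recovered. On early Bcl11b counts for 10873 genes, 8% and 92% were recovered. In each simulation 200 genes above a floor of expression were changed, and the same spread was given to all genes. The shares therefore do not measure the power for genes of low expression or wide spread in the data. Counting intervals and floors cover counting error only.

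The members, gene lists and tests were chosen with earlier results of these data known. Grouping by number of members, RefSeq windows and overlaps, and the exchange of WT groups were added after the files were seen. Named genes were taken by rule: the targeted genes, the 8 with most members, the 8 largest rises and falls per stage of the Gata3 experiment among called genes with a member within 100 kb, a mean RPKM of 5 or more in the higher of WT and KO, and no overlap between WT and KO libraries, up to 5 per list by score, and 4 per stage of the Bcl11b experiment by smallest p. Some list genes are given only in counts, and some are not reported here. A genome sequence was not used here.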

Additional observations from a re-analysis of the deposited data

Results flagged for a closer look

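A difference between groups under the same contrast marked the 552 nearest genes whose Gata3 KO effect was not the same late as early (edgeR, adjusted p below 0.05), and 38 of the genes named above are among them. Each value is the log2 KO effect in late cells minus that in early cells, and since early and late WT libraries hardly differed, each is close to the difference between the 2 KO groups. Among genes with many members the differences were 1700061F12Rik 6.26, B3galt2 5.44, Ctla4 2.36, Cxcr4 2.61, Fosl2 1.59, Gata3 1.14, Il7r 2.33, Inhba 6.68, Maf 1.97, Nrip1 1.18, Pde4b 1.81. Among genes of the Th2 list and other early falls they were Akr1c18 2.27, Areg 3.42, Ccr3 3.71, Cyp11a1 3.41, Gpr15 3.51, Il13 1.82, Il1r2 4.07, Il1rl1 2.79, Penk 3.13, Pparg 4.74, Pth 2.80, Slc17a6 5.69, Sval1 7.68. For Th17, regulatory, integrin and other genes they were Ahr 1.46, Batf 1.39, Icos 1.36, Il2ra 1.45, Itga4 2.71, Rabgap1l 1.96, Tmem176b 1.36. The KO effect was lower late in Cables1 -7.22, Fasl -4.58, Gpr18 -1.23, Mndal -2.52, Ms4a6d -2.97, Serpinb9 -4.36, Stat4 -1.77. In the Bcl11b experiment the differences were C5ar1 10.83, Il13 -3.74, Inhba -1.82, Penk -1.19. For genes at or near 0 reads in a group (1700061F12Rik, Sval1, Cables1 and C5ar1) the fitted size depends on the prior count and is no bound.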

How the results depend on the processing

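The number of members stayed between 8462 and 11982 under other overlap, FDR, score and distance limits and was 6399 when no RefSeq gene was allowed to overlap. With only those, 333 nearest genes rose in early Gata3 KO, and the number of genes tested among them is not given here. The counts for early Gata3 KO, and the 28 and 26 of 47 genes with 10 or more members, kept within 1.5 times their values under every other alternative run, the WT of the other stage included. Leave-one-out counts ranged from 377 to 418 for early rises, 483 to 586 for early falls, 221 to 320 for late rises, 168 to 236 for late falls, 340 to 581 for stage differences, 25 to 27 for falls and 20 to 26 for stage differences among genes with 10 or more members, and, in the Bcl11b experiment, 306 to 455 and 311 to 385 early and 8 to 14 and 2 to 2 late. Libraries share a replicate number across groups, but nothing says that a number marks a shared animal or culture. With a replicate block, 557 nearest genes rose and 450 fell in late Gata3 KO, 905 differed between stages and 10 fell in late Bcl11b KO. The other block counts stayed within 1.5 times. Same-numbered libraries of the Gata3 experiment deviated together (r from 0.173 to 0.605 between groups), and those of the Bcl11b experiment did not throughout (-0.080 to 0.344). For early Bcl11b KO, limma on log2(RPKM + 1) gave 1872 rises and 86 falls and limma on log2(RPKM + 0.1) gave 1894 and 90, while the 4 libraries alone gave 207 and 178. For late Bcl11b KO, rises were 163 with DESeq2, 20 with limma on log2(RPKM + 0.1), 44 without a filter and 385 with the 4 libraries alone, and falls were 73, 7, 9 and 194, with 29 by limma on log2(RPKM + 1). Bcl11b itself in early Bcl11b KO turned to 0.0469 and 0.0603 on the log2 scale with limma on log2(RPKM + 1) and log2(RPKM + 0.1). Apart from the 4 late Bcl11b libraries fitted alone, the share of all genes called in these alternatives is not given here. Their counts therefore do not show whether the excess over all genes changed. The causes of these changes were not tested. The motif share was 86.1% with GATA alone, and the search around peak centres was not run. Depth limits most members, whose median peak held 12 reads in 1 library.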

Other observations

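Of the 77 genes nearest to 10 or more intergenic GATA3 peaks without Bcl11b, 30 had too few reads to be tested or were not in the RNA table, so that no change can be given for them. The histone gene H2afy3 and the unnamed Gm17746 had 28 members each, more than any tested gene except Maf, and H2afy3 had a member of fold 18.75. Lmod3, a muscle actin regulator, had 12 members with a highest fold of 12.26.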
